A study of Mus musculus with 3 samples.

Results

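The 42 genes described here carry out programmed cell death, hold it back, or respond to the tumour suppressor p53. They were taken by gene name from a list of BCL2 family members, caspases, caspase inhibitors, GADD45 genes and genes of the p53 pathway. All 42 were found, each on 1 gene model, among the 22077 gene names analysed.

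Apoptosis through mitochondria is set by the BCL2 family. Pro-survival members such as MCL1 and BCL-XL restrain the effectors BAX and BAK, and BH3-only proteins lift that restraint. Once BAX and BAK open the outer mitochondrial membrane, cytochrome c joins APAF1 to activate caspase 9, while death receptors such as FAS activate caspase 8 through FADD. p53 raises transcription of cell cycle inhibitors, of several BH3-only genes and of its own inhibitor MDM2. In the mammary gland, BCL2 family proteins are known for their part in the loss of epithelial cells after weaning, and epithelial cells that lose contact with their matrix can die by apoptosis.

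RNA sequencing was done on 3 libraries from FVB mice, with 1 library per group. The LCC (lung-colonizing cell) library held mammary cells of GFP mice, or mammary cells of FVB mice stained with the dye DDAO. These cells had been injected into a vein of FVB recipients and were sorted from dissociated lungs 1 day later. The source labels name GFP mice for LCC only. The LCC library pooled 455880 cells of 42 lungs from 15 experiments. The design text describes an experiment as 8 female donors, 4 recipients and 2 doses of 2500000 cells, which over 15 experiments would give more recipients than the 42 lungs, and the labels do not say why. The E-Int29-Hi library was made from mammary cells gated on EpCAM of middling and CD29 (integrin beta 1) of high level, 3 samples combined, a subset that the labels call enriched for colonizing cells. The MG library came from mammary gland that was not dissociated, also from 3 combined samples. The stated aim was the expression profile of the cells that reach the lung, set against this subset and the whole gland. The labels name no EpCAM or CD29 gate for LCC, so LCC and E-Int29-Hi differ in how they were sorted as well as in passage through the lung. With 1 pooled library per group there was no replicate error and no test, and each difference below describes these pools.

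Values are FPKM, fragments scaled for the length of the gene model and for the total mapped in the library, as deposited, so levels of different genes can be compared. Read totals were not used here because the files give none, and the depth behind each value is unknown. The libraries listed 6819 (LCC), 4952 (E-Int29-Hi) and 3163 (MG) of the analysed genes at 0, and none of the 42 members. Differences are log2 of (FPKM + 1) over (FPKM + 1), which understates those of low genes. A gene is called higher or lower when that ratio is at least 2-fold (log2 of 1), counting genes for which either library of the pair gives at least 1 FPKM.

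Cell makeup differed strongly between the libraries. The 6 basal and myoepithelial markers summed to 647 FPKM in LCC, against 7248 FPKM in E-Int29-Hi and 441 FPKM in MG, and all 6 were at least 4-fold lower in LCC than in E-Int29-Hi. Against MG, Krt5, Krt14 and Krt17 had higher values in LCC, and Acta2, Myh11 and Cnn1 had lower ones. The 7 luminal markers split. The keratins Krt8, Krt18 and Krt19 were at least 4-fold higher in LCC than in E-Int29-Hi and carried the sum of 3889 FPKM in LCC, against 325 FPKM in E-Int29-Hi and 2022 FPKM in MG, while Elf5, Esr1, Pgr and Gata3 had lower values in LCC than in either other library. The 7 fibroblast markers summed to 1356 FPKM in LCC, against 133 FPKM in E-Int29-Hi and 2888 FPKM in MG. Markers of lung epithelium summed to 618 FPKM in LCC, against 1.24 FPKM in E-Int29-Hi and 0.701 FPKM in MG, and Sftpa1 was listed at 0 in E-Int29-Hi. Scgb1a1 alone gave 92.5% of the LCC sum, and all 5 of these markers reached 1 FPKM in LCC only. The 6 macrophage and monocyte markers summed to 370, 102 and 192 FPKM in the same order, and the 5 dendritic cell markers to 137, 5.22 and 9.29 FPKM. Of the macrophage and monocyte sum, Lyz2 gave 62.8% in LCC and Cd14 gave 68.0% in MG. Against MG, 5 of these 6 markers had higher values in LCC, and Cd14 was lower (log2 of -1.33). The 5 endothelial markers summed to 82.7, 76.2 and 459.5 FPKM, the 6 lymphocyte markers to 3.76, 1.76 and 7.14 FPKM and the 4 neutrophil markers to 31.7, 0.886 and 11.1 FPKM, with Ly6g listed at 0 in each library. Of 6 immediate early genes, which respond to handling, 5 had lower values in LCC than in either other library, with Fos at -1.95 and -2.66 (log2), while Ier3 had its highest value in LCC, and the list summed to 1727, 2123 and 2202 FPKM. Defining adipocyte markers were nearly absent from MG, which was labelled as undissociated mammary gland tissue, with Adipoq at 1.12 and Lep at 0.614 FPKM. The 3 adipocyte markers summed to 0.0190 FPKM in LCC, against 0.241 FPKM in E-Int29-Hi and 2.31 FPKM in MG.

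Most of the 42 genes were transcribed in each library. In all 3 libraries 38 members reached 1 FPKM and 20 reached 10 FPKM. The exceptions at 1 FPKM were Hrk, Bmf, Fadd and Zmat3. Gadd45b led in LCC at 163 FPKM, ahead of Cdkn1a at 144 and Gadd45a at 136 FPKM. In E-Int29-Hi the order was Cdkn1a (138 FPKM), Perp (127 FPKM) and Gadd45b (122 FPKM), and in MG it was Mcl1 (151 FPKM), Gadd45g (138 FPKM) and Cdkn1a (113 FPKM). Cdkn1a stood above 98.2% of the genes analysed in LCC, above 98.4% in E-Int29-Hi and above 98.3% in MG.

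**Figure D1:**
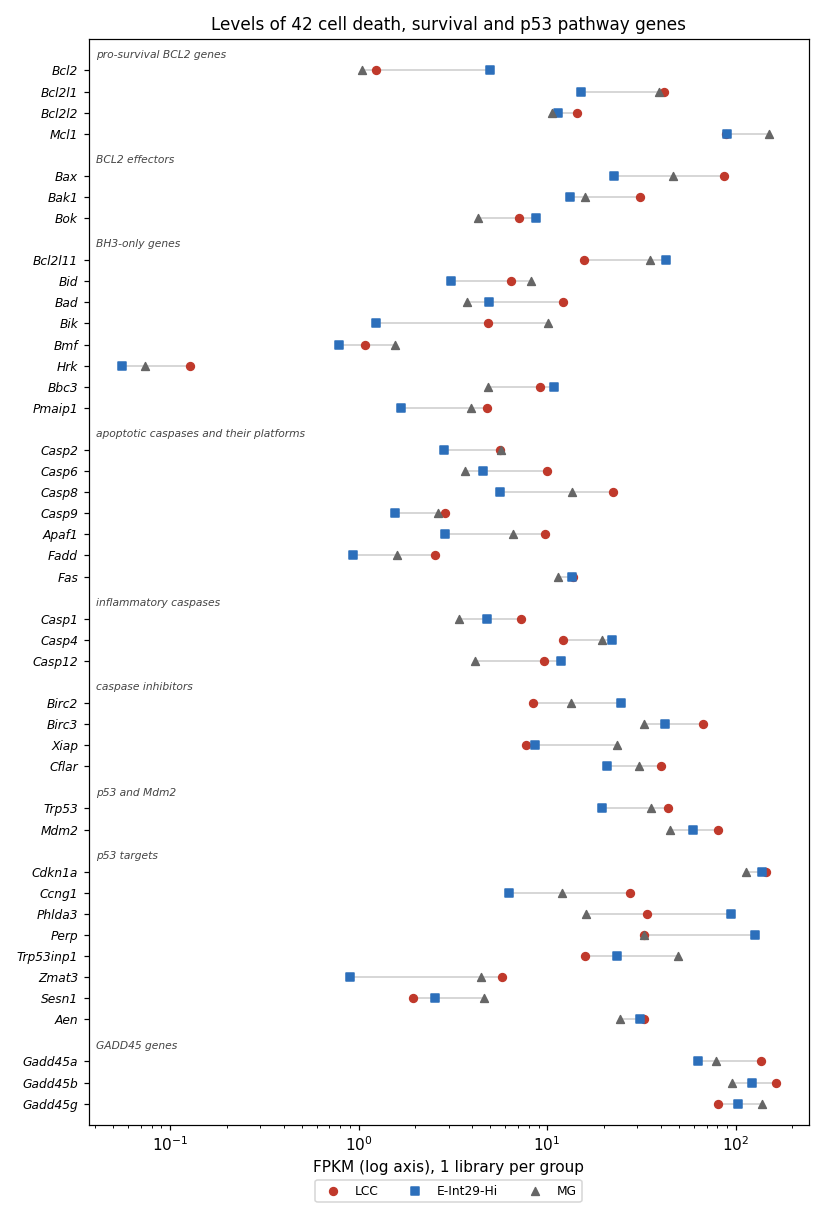
FPKM of each of the 42 genes (log axis) in LCC (circles), E-Int29-Hi (squares) and MG (triangles), grouped by role, with 1 library per group and no error bars. Bax is spread over 86.3 FPKM (LCC), 22.6 FPKM (E-Int29-Hi) and 46.5 FPKM (MG), Perp is set apart by E-Int29-Hi at 127 FPKM, and Hrk lies far left of all others.

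Against E-Int29-Hi, LCC was higher for 12 and lower for 5 of the 41 members that passed the filter. Among all 12147 genes past it, 21.2% were higher and 14.1% lower, against 29.3% and 12.2% of the members. Against MG, LCC was higher for 6 and lower for 3 of 41 members (14.6% and 7.32%), with 10.9% and 12.8% of 12443 genes. In E-Int29-Hi against MG, 5 members were higher and 8 lower (12.2% and 19.5%), with 8.99% and 15.5% of 12430 genes. These shares lie near those of all genes, so the counts say little that is particular to cell death genes. At a 4-fold threshold 0 members were called in LCC against E-Int29-Hi or against MG, where 4.64% and 1.33% of all genes were higher and 4.35% and 2.63% lower. Only Phlda3 (higher) and Bik (lower) passed it in E-Int29-Hi against MG, where 2.6% of all genes were higher and 3.97% lower.

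The median member differed by 0.44 (log2) in LCC against E-Int29-Hi, where the median of all genes was 0.26. The corresponding medians were 0.35 and 0.01 in LCC against MG, and -0.31 and -0.23 in E-Int29-Hi against MG. Scaling each library by its median ratio moved the medians of all genes to 0.00, 0.06 and 0.07, and left 7 members higher and 6 lower in LCC against E-Int29-Hi, where 14.9% and 18.4% of all genes were. It left 7 higher and 4 lower in E-Int29-Hi against MG, where 13.8% and 11.1% of all genes were. Rescaling to a fixed sum per library (TPM) moved the medians of all genes to -0.41 in LCC against MG and -0.45 in E-Int29-Hi against MG. With TPM, 2 members were higher and 9 lower in LCC against MG, where 6.13% and 27.1% of all genes were, and 4 were higher and 13 lower in E-Int29-Hi against MG, where 8.08% and 25.8% were. Bcl2l1, Bax, Casp8 and Ccng1 (higher) and Bcl2l11, Birc2, Phlda3 and Perp (lower) were at least 2-fold apart in LCC against E-Int29-Hi under each pseudocount, filter and scaling tried. The same held for Xiap and Trp53inp1 (lower) in LCC against MG, and for Phlda3 and Perp (higher) and Bcl2l1, Bik and Xiap (lower) in E-Int29-Hi against MG. Every other call of a member ended with a pseudocount of 5 FPKM, except that of Gadd45a, which ended with median ratio scaling and with TPM.

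**Figure D2:**
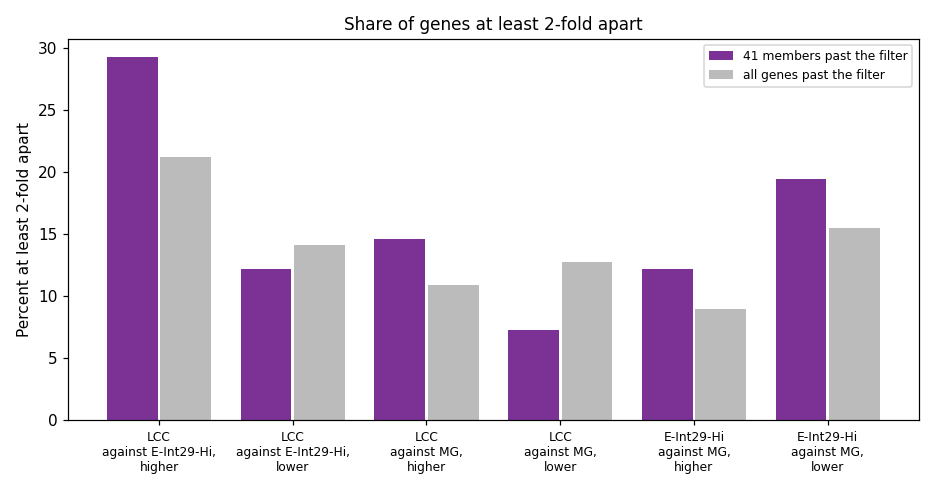
Percent of genes at least 2-fold higher or lower in each comparison, for the 41 members past the filter and for all genes past it. The bars of members and of all genes differ most for genes higher in LCC than in E-Int29-Hi, at 29.3% and 21.2%.

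Among the 4 pro-survival genes, Bcl2l1 was higher and Bcl2 lower in LCC than in E-Int29-Hi. Bcl2l1, which encodes BCL-XL, was at 41.5 FPKM in LCC, against 15.1 FPKM in E-Int29-Hi and 39.4 FPKM in MG. E-Int29-Hi was the low library, with a log2 difference of 1.4 for LCC against it and 0.07 for LCC against MG. Bcl2, the founding member of the family, had 1.24 FPKM in LCC, against 4.97 FPKM in E-Int29-Hi and 1.04 FPKM in MG, a log2 difference of -1.42 for LCC against E-Int29-Hi. Its level was thus low in each library beside that of the rest of the group. Mcl1, a short-lived survival protein, was the most abundant of the group in each library, at 88.9 FPKM in LCC, against 90.4 FPKM in E-Int29-Hi and 151 FPKM in MG, and differed by less than 2-fold in each comparison. Bcl2l2, which encodes BCL-W, lay between 10.6 and 14.4 FPKM. Mcl1 exceeded Bcl2l1 2.14-fold in LCC, against 5.97-fold in E-Int29-Hi and 3.82-fold in MG.

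The effector genes Bax and Bak1 were most abundant in LCC. Bax stood at 86.3 FPKM in LCC, against 22.6 FPKM in E-Int29-Hi and 46.5 FPKM in MG. LCC was the high library and E-Int29-Hi the low one, with log2 differences of 1.89 for LCC against E-Int29-Hi, 0.88 for LCC against MG and -1.01 for E-Int29-Hi against MG, the last being -0.68 with median ratio scaling. Bak1 was at 31.0 FPKM in LCC, against 13.2 FPKM in E-Int29-Hi and 15.8 FPKM in MG, with differences of 1.17 and 0.93 for LCC against the other two, and with median ratio scaling the first was 0.90. Bok, a relative of the pair that is bound less by the pro-survival proteins, lay between 4.32 FPKM in MG and 8.71 in E-Int29-Hi. The 3 effector genes summed to 124 FPKM in LCC, against 44.5 FPKM in E-Int29-Hi and 66.6 FPKM in MG. All 7 fibroblast markers (summed, 1356 FPKM in LCC, against 133 FPKM in E-Int29-Hi), all 6 macrophage and monocyte markers (370 FPKM, against 102 FPKM) and all 5 lung epithelium markers (618 FPKM, against 1.24 FPKM) were also at least 2-fold higher in LCC, as were 3 of the 7 luminal markers, of which 3 were at least 2-fold lower. Their part in the differences of the effectors and of the caspases was not tested. Bax stood at 0.971 times the level of Mcl1 in LCC, 0.25 times in E-Int29-Hi and 0.309 times in MG.

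The 8 BH3-only genes differed in both directions. Bcl2l11, which encodes BIM, a direct activator of BAX, had 15.7 FPKM in LCC, against 42.6 FPKM in E-Int29-Hi and 35.04 FPKM in MG. LCC was the low library, with log2 differences of -1.38 against E-Int29-Hi and -1.11 against MG. It was the most abundant BH3-only gene in each library. Bad, whose product binds pro-survival proteins and is silenced by survival kinases, stood at 12.1 FPKM in LCC, against 4.94 FPKM in E-Int29-Hi and 3.78 FPKM in MG. LCC was the high library, by 1.14 and 1.45 (log2) against the other two, and the first of these was 0.89 with median ratio scaling.

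Bik, whose BH3-only product sits at the endoplasmic reticulum, was at 4.85 FPKM in LCC, against 1.23 FPKM in E-Int29-Hi and 10.1 FPKM in MG. The log2 difference was 1.39 for LCC against E-Int29-Hi and -2.31 for E-Int29-Hi against MG, and -0.92 for LCC against MG. Pmaip1, the p53 target NOXA, had 4.77 FPKM in LCC, against 1.67 FPKM in E-Int29-Hi and 3.96 FPKM in MG, 1.11 (log2) higher in LCC than in E-Int29-Hi and 0.91 with median ratio scaling. Bid, which caspase 8 cleaves into an active form, stood at 6.46 FPKM in LCC, against 3.11 FPKM in E-Int29-Hi and 8.19 FPKM in MG, -1.16 (log2) in E-Int29-Hi against MG, or -0.89 with median ratio scaling. Bbc3, the p53 target PUMA, was at 9.21 FPKM in LCC, against 10.9 FPKM in E-Int29-Hi and 4.86 FPKM in MG, a log2 difference of 1.02 for E-Int29-Hi against MG. Bmf, linked to cell detachment, lay between 0.784 and 1.57 FPKM. Hrk, known from neurons, lay between 0.0553 and 0.128 FPKM and passed the filter in no comparison.

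E-Int29-Hi was the low library for most of the apoptotic caspases and their platforms. Casp8, the initiator caspase of death receptors, had 22.4 FPKM in LCC, against 5.65 FPKM in E-Int29-Hi and 13.5 FPKM in MG. It was 1.82 (log2) higher in LCC than in E-Int29-Hi and differed by -1.12 in E-Int29-Hi against MG, or -0.82 with median ratio scaling. Apaf1, the scaffold of the apoptosome, stood at 9.76 FPKM in LCC, against 2.87 FPKM in E-Int29-Hi and 6.62 FPKM in MG, 1.47 (log2) higher in LCC than in E-Int29-Hi. Casp6, a caspase that acts downstream of the initiators, was at 10.01 FPKM in LCC, against 4.57 FPKM in E-Int29-Hi and 3.67 FPKM in MG. It was 1.24 (log2) higher in LCC than in MG and 0.98 higher than in E-Int29-Hi.

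Casp2 (2.83 to 5.71 FPKM), Casp9 (1.57 to 2.86 FPKM) and the adaptor gene Fadd (0.934 to 2.56 FPKM) differed by less than 2-fold in each comparison. Fas, the death receptor, had 13.7 FPKM in LCC, against 13.5 FPKM in E-Int29-Hi and 11.4 FPKM in MG. All 7 genes of the group had a higher value in LCC than in E-Int29-Hi, although only Casp8 and Apaf1 were called (28.6%, beside 21.2% of all genes). With median ratio or TPM scaling 6 had a higher value, as Fas changed sign. On the deposited scale the median of all genes was itself 0.26 (log2) in this comparison. Of the 42 members, 28 had a higher value in LCC on that scale, and 25 did with median ratio or with TPM scaling. The matching share of all genes was not counted.

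Of the 3 inflammatory caspases, which act in inflammasome signalling and pyroptosis, Casp12 was the only one called. It stood at 9.62 FPKM in LCC, against 11.8 FPKM in E-Int29-Hi and 4.15 FPKM in MG, 1.04 (log2) above MG in LCC and 1.31 above it in E-Int29-Hi, the first being 0.79 with TPM. Casp4, which senses bacterial lipopolysaccharide, was at 12.2 FPKM in LCC, against 22.1 FPKM in E-Int29-Hi and 19.5 FPKM in MG. LCC was the low library, with a log2 difference of -0.81 against E-Int29-Hi, or -1.09 with median ratio scaling. Casp1, which matures interleukin 1 beta, had 7.28 FPKM in LCC, against 4.79 FPKM in E-Int29-Hi and 3.41 FPKM in MG. These genes follow each other on the chromosome in the RefSeq annotation of GRCm38.p6, with Casp4 between Casp1 and Casp12, and they did not share an order of levels.

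Birc2 and Birc3 are adjacent genes in the same annotation and encode the ubiquitin ligases cIAP1 and cIAP2, which restrain caspase 8 and alternative NF-kappaB signalling. Birc2 stood at 8.45 FPKM in LCC, against 24.7 FPKM in E-Int29-Hi and 13.4 FPKM in MG, a log2 difference of -1.45 for LCC against E-Int29-Hi. Birc3, an NF-kappaB target, was at 67.2 FPKM in LCC, against 42.0 FPKM in E-Int29-Hi and 32.6 FPKM in MG, 1.02 (log2) higher in LCC than in MG, or 0.66 with TPM. LCC was thus the low library for Birc2 and the high one for Birc3, and Birc3 exceeded Birc2 7.95-fold in LCC, against 1.7-fold in E-Int29-Hi and 2.44-fold in MG. Xiap, the direct inhibitor of caspases, had 7.77 FPKM in LCC, against 8.64 FPKM in E-Int29-Hi and 23.4 FPKM in MG. MG was the high library, and the log2 difference from it was -1.48 in LCC and -1.34 in E-Int29-Hi. Cflar, whose product FLIP competes with caspase 8, stood at 40.2 FPKM in LCC, against 20.7 FPKM in E-Int29-Hi and 30.7 FPKM in MG and was not called. Casp8 and Cflar are also neighbours, and Casp8 stood at 0.558 times the level of Cflar in LCC, 0.272 times in E-Int29-Hi and 0.439 times in MG.

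**Figure D3:**
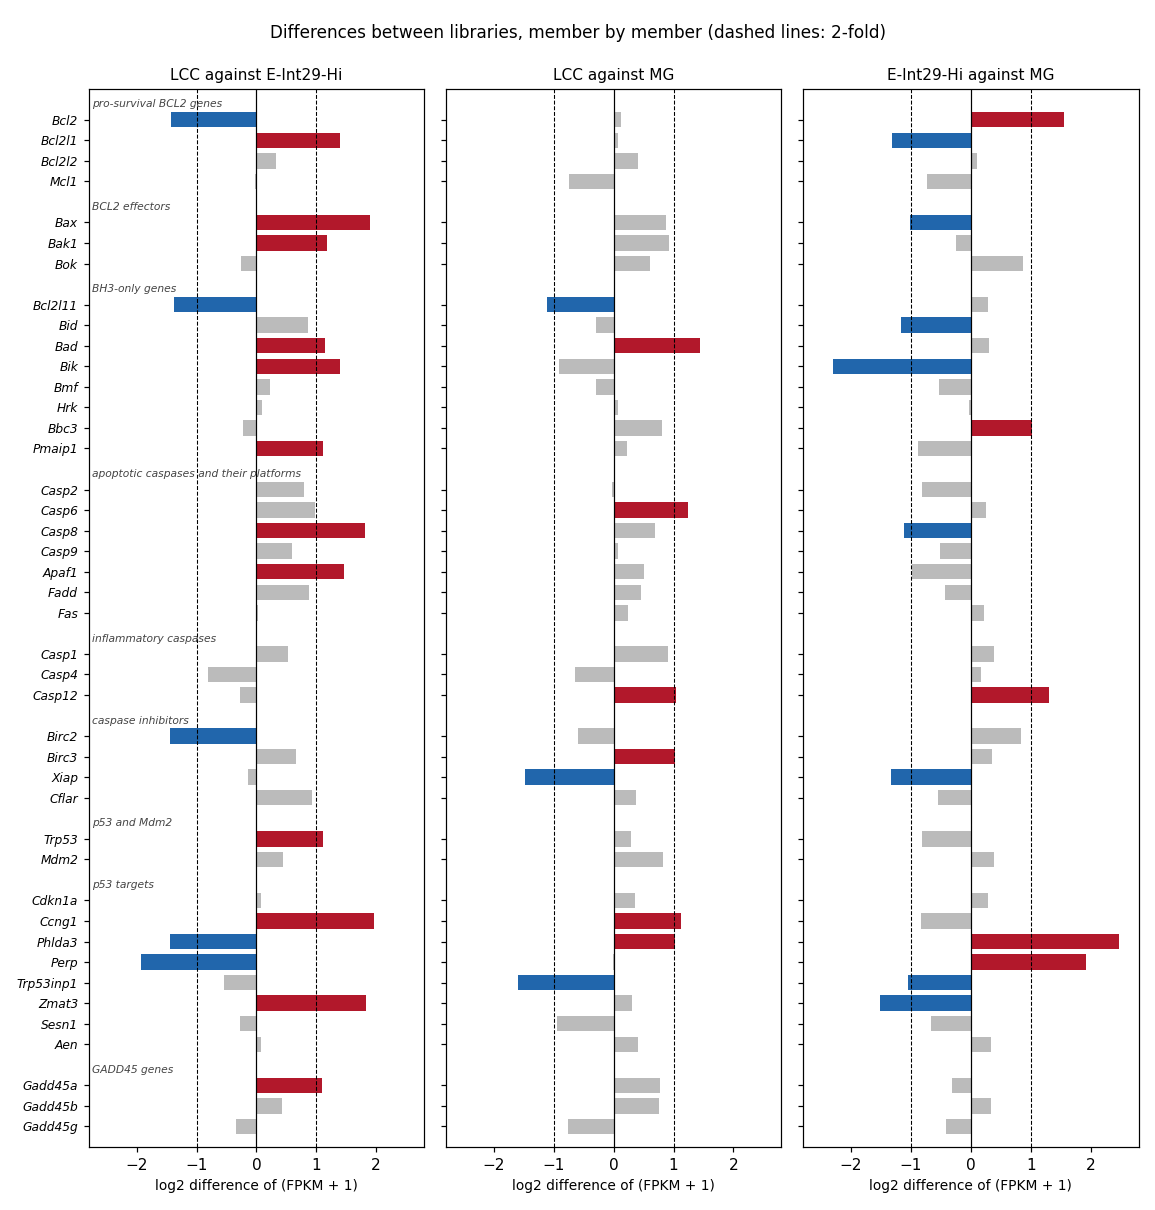
Log2 difference of (FPKM + 1) for each of the 42 genes in the 3 comparisons, grouped by role, with coloured bars past 2-fold (dashed lines) and grey bars under it. Within most role groups the bars point both ways, as for Bcl2 at -1.42 and Bcl2l1 at 1.4 in LCC against E-Int29-Hi.

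Trp53, which encodes p53, was at 43.6 FPKM in LCC, against 19.6 FPKM in E-Int29-Hi and 35.4 FPKM in MG. It was 1.11 (log2) higher in LCC than in E-Int29-Hi, or 0.83 with median ratio scaling. Mdm2, the ubiquitin ligase that degrades p53 and is itself a p53 target, had 80.3 FPKM in LCC, against 59.1 FPKM in E-Int29-Hi and 45.0 FPKM in MG, with LCC the high library and no call. Since p53 is controlled largely through protein stability, these transcript levels do not measure its activity.

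The genes of the p53 target group split between the libraries. Ccng1, which encodes cyclin G1, stood at 27.4 FPKM in LCC, against 6.26 FPKM in E-Int29-Hi and 11.9 FPKM in MG. LCC was the high library, by 1.97 (log2) against E-Int29-Hi and 1.13 against MG, and with TPM the difference from MG was 0.80. Zmat3, an RNA-binding protein gene, was at 5.76 FPKM in LCC, against 0.905 FPKM in E-Int29-Hi and 4.45 FPKM in MG. E-Int29-Hi was the low library, with log2 differences of 1.83 for LCC against it and -1.52 for E-Int29-Hi against MG.

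Perp and Phlda3 were lower in LCC than in E-Int29-Hi. Perp, a desmosomal membrane protein gene of stratified epithelium that p53 and p63 activate, had 32.6 FPKM in LCC, against 127 FPKM in E-Int29-Hi and 32.8 FPKM in MG, with log2 differences of -1.93 for LCC against E-Int29-Hi and 1.92 for E-Int29-Hi against MG. Phlda3, which encodes an inhibitor of AKT, stood at 34.0 FPKM in LCC, against 94.9 FPKM in E-Int29-Hi and 16.1 FPKM in MG, with differences of -1.45 and 2.48 in the same comparisons and 1.03 for LCC against MG, or 0.68 with TPM. E-Int29-Hi was the high library for both genes. It was also the high library for the basal marker list (647 FPKM in LCC, against 7248 FPKM in E-Int29-Hi and 441 FPKM in MG), and the part of cell makeup in these differences was not tested. In pooled cells, a different number of cells of a type and a different amount of RNA per cell cannot be told apart.

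Trp53inp1, a stress-induced gene linked to autophagy and cell death, was at 15.8 FPKM in LCC, against 23.4 FPKM in E-Int29-Hi and 49.5 FPKM in MG. MG was the high library, and the log2 difference from it was -1.59 in LCC and -1.05 in E-Int29-Hi, or -0.72 in E-Int29-Hi with median ratio scaling. Cdkn1a, the cell cycle inhibitor p21, had 144 FPKM in LCC, against 138 FPKM in E-Int29-Hi and 113 FPKM in MG, within 2-fold throughout, and its log2 difference between LCC and E-Int29-Hi ranged from -0.22 to 0.07 over the alternatives. Aen, an apoptosis-enhancing nuclease gene, lay between 24.3 and 32.7 FPKM. Sesn1, a sestrin gene, stood at 1.93 FPKM in LCC, against 2.55 FPKM in E-Int29-Hi and 4.62 FPKM in MG and was not called. Of the 8 targets in this role group, 2 were higher and 2 lower in LCC than in E-Int29-Hi, as were 2 and 2 in E-Int29-Hi against MG. Each of these counts is 25% of the 8 targets. The shares of all genes were 21.2% higher and 14.1% lower in the first comparison, and 8.99% and 15.5% in the other. The counts leave out p53-responsive members placed in other role groups. In LCC against E-Int29-Hi, Bax (1.89, log2), Apaf1 (1.47), Pmaip1 (1.11) and Gadd45a (1.09) were at least 2-fold higher. Mdm2 (0.44), Fas (0.02) and Bbc3 (-0.22) were within 2-fold. The calls of Pmaip1 and Gadd45a ended with median ratio scaling. The even split thus describes this role group and not every p53-responsive member.

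Promoter sequence was searched for the p53 response element, since members known as p53 targets differed in both directions. RefSeq windows on GRCm38.p6 from 250 bases before to 50 after a start site were at hand for 37 of the 42 members (52 windows). The remaining members, among them Perp, Zmat3, Trp53inp1 and Bik, had no window and were not searched. An element outside these short windows would be missed in any gene. The element is made of 2 copies of a 10-base unit that reads the same on both strands, here up to 13 bases apart, with the C and G at the core of each copy fixed. With at most 1 mismatch over the copies, 2 of the 52 windows held it, those of Ccng1 and Cdkn1a, and 0.627% of all 32851 windows did. With at most 2 mismatches, Bax, Casp2, Gadd45a and Sesn1 joined them, 6 of 52 windows, against 4.09% of all windows. Where pairs overlapped, the one with the shortest spacer is given. The windows of 4 of these genes are shown because Ccng1, Bax and Gadd45a were at least 2-fold higher in LCC than in E-Int29-Hi while Cdkn1a was within 2-fold. Capitals mark the matched element.
Ccng1, chr11:40755237-40755536, minus strand: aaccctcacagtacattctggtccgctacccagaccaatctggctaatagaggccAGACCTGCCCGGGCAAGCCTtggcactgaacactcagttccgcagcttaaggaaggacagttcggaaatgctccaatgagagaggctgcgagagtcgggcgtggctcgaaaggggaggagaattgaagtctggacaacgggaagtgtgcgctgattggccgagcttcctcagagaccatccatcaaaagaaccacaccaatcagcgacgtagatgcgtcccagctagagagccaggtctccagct
Bax, chr7:45466849-45467148, minus strand: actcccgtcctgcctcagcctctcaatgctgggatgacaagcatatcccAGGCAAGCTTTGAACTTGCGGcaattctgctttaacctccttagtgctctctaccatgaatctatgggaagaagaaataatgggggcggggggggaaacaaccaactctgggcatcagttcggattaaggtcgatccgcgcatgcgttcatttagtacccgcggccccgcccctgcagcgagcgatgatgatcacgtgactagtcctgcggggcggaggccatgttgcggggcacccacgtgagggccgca
Gadd45a, chr6:67037358-67037657, minus strand: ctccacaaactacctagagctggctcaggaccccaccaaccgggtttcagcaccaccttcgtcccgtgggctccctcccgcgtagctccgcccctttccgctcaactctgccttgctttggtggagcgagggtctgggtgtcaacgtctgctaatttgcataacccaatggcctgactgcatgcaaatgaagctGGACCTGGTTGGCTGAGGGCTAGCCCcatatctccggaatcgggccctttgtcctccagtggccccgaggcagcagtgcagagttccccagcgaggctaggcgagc
Cdkn1a, chr17:29090729-29091028, plus strand: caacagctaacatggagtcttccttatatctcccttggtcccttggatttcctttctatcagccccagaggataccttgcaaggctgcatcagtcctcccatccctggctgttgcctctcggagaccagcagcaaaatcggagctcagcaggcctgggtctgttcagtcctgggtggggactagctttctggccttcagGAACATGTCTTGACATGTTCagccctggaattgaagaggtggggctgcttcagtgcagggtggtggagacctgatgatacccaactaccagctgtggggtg

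The Ccng1 match, 2 units with no spacer and 1 mismatch, begins 195 bases upstream of the start. That of Cdkn1a has the same form and lies in the window of the more upstream of its 2 starts, which are 2790 bases apart. The Bax match begins 201 bases upstream, with 2 mismatches and a spacer of 1 base, and that of Gadd45a begins 56 bases upstream with a spacer of 6 bases. A match describes these letters and shows no binding. Genes with a match included both differing and level ones, with log2 differences of 1.97 (Ccng1), 1.89 (Bax), 1.09 (Gadd45a), 0.79 (Casp2), 0.07 (Cdkn1a) and -0.28 (Sesn1) in LCC against E-Int29-Hi.

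The 3 GADD45 genes, whose small proteins activate stress kinases and slow the cell cycle, were all abundant. Gadd45a, the p53-responsive member, was at 136 FPKM in LCC, against 63.4 FPKM in E-Int29-Hi and 78.8 FPKM in MG, 1.09 (log2) higher in LCC than in E-Int29-Hi, or 0.81 with median ratio scaling. Gadd45b, an NF-kappaB and TGF-beta target, had 163 FPKM in LCC, against 122 FPKM in E-Int29-Hi and 95.9 FPKM in MG. Gadd45g, by contrast, stood at 81.0 FPKM in LCC, against 103 FPKM in E-Int29-Hi and 138 FPKM in MG. LCC was the high library for Gadd45a and Gadd45b and the low one for Gadd45g, and neither Gadd45b nor Gadd45g was called.

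**Figure D4:**
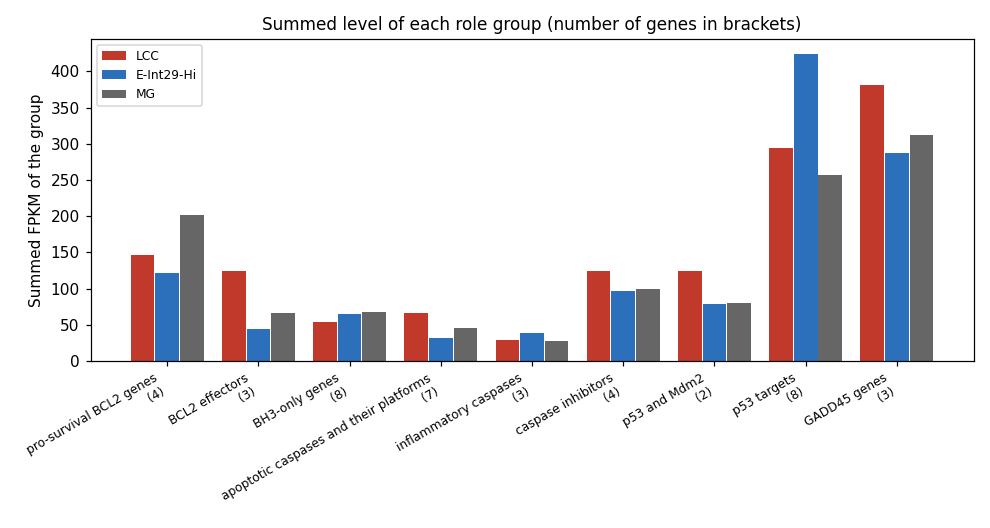
Summed FPKM of each role group, bars running LCC, E-Int29-Hi, MG from left to right, with the number of genes in brackets and 1 library per bar. The effector sum is highest in LCC (124 against 44.5 and 66.6 FPKM). The p53 target sum is highest in E-Int29-Hi (295 FPKM in LCC, 424 FPKM in E-Int29-Hi and 257 FPKM in MG). Within this role group and on the deposited scale, E-Int29-Hi is the high library only for Perp (127 FPKM) and Phlda3 (94.9 FPKM). Every other gene of this role group has its highest deposited value in LCC or MG, so this sum does not describe the group. For Cdkn1a and Aen the sign of LCC against E-Int29-Hi depended on the setting (-0.22 to 0.07 and -0.20 to 0.08, log2).

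On the deposited scale, LCC had the highest value of the 42 genes for 24 (57.1%), E-Int29-Hi for 9 (21.4%) and MG for 9 (21.4%). Among all 12772 genes at 1 FPKM or above in any library the shares were 41.6%, 25.2% and 33.2%. With median ratio scaling the members gave 22 (52.4%), 12 (28.6%) and 8 (19%) in the same order, beside 37.6%, 36.5% and 25.9% of those genes. With TPM, LCC was highest for 16 members (38.1%, against 28.6% of those genes). E-Int29-Hi was highest for 12 (28.6%, against 23.8%) and MG for 14 (33.3%, against 47.6%). Those at least 2-fold above both others were Bad and Ccng1 in LCC, Bcl2, Phlda3 and Perp in E-Int29-Hi, and Xiap and Trp53inp1 in MG. Those at least 2-fold below both were Bcl2l11 in LCC, Bcl2l1, Bax, Bik, Casp8 and Zmat3 in E-Int29-Hi, and Casp12 and Phlda3 in MG. Within 2-fold in each comparison were 18 members. The matching shares over all genes were not counted, so these lists and this count describe the members alone. In the GENCODE M21 annotation, which is of another build than the files, exons of 10 members overlap those of another gene (Bcl2, Bcl2l2, Bax, Bak1, Bid, Bad, Casp9, Fadd, Cdkn1a and Gadd45a), and the counting was not stated to use strand, so their values may include reads of the partner.

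A wider list of 66 other genes of the same pathways was then read in the same way. In LCC against E-Int29-Hi, 12 of the 54 that passed the filter were higher and 8 lower (22.2% and 14.8%, beside 21.2% and 14.1% of all genes). In LCC against MG it was 9 and 9 of 56 (16.1% each, beside 10.9% and 12.8%), and in E-Int29-Hi against MG 3 and 11 of 54 (5.56% and 20.4%, beside 8.99% and 15.5%). With median ratio scaling the last split was 8 and 9 (13.8% and 11.1% of all genes), and with TPM 8 were higher and 16 lower in LCC against MG (6.13% and 27.1% of all genes).

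The A1 genes, pro-survival BCL2 relatives of leukocytes and NF-kappaB targets, gave some of the widest differences. Bcl2a1b was at 19.5 FPKM in LCC, against 1.4 FPKM in E-Int29-Hi and 5.61 FPKM in MG, Bcl2a1a at 14.6, 0.539 and 2.14 FPKM, and Bcl2a1d at 10.9, 0.599 and 2.03 FPKM. These are near-identical copies whose separate values are uncertain. Traf1, an adaptor of TNF receptors and also an NF-kappaB target, had 37.2 FPKM in LCC, against 2.05 FPKM in E-Int29-Hi and 6.76 FPKM in MG, a log2 difference of 3.65 for LCC against E-Int29-Hi. LCC was the high library for each of these genes. The marker sums of macrophages, dendritic cells and neutrophils were highest there as well, and that of lymphocytes in MG. Of the 5 dendritic cell markers 4 and of the 6 macrophage and monocyte markers 2 were at least 4-fold higher in LCC than in E-Int29-Hi, and their part in these differences was not tested.

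Htra2, a mitochondrial protease gene, was at 27.8 FPKM in LCC, against 9.62 FPKM in E-Int29-Hi and 7.25 FPKM in MG. Tnfrsf1a, the main TNF receptor gene, had 53.7 FPKM in LCC, against 140 FPKM in E-Int29-Hi and 73.1 FPKM in MG. Ripk3, the kinase of necroptosis, stood at 11.7 FPKM in LCC, against 6.58 FPKM in E-Int29-Hi and 59.9 FPKM in MG, with log2 differences from MG of -2.27 in LCC and -3.01 in E-Int29-Hi. Bcl2l14, a BCL2 relative, was at 0.0945 FPKM in LCC, against 0.362 FPKM in E-Int29-Hi and 4.94 FPKM in MG. MG was the high library for Ripk3 and Bcl2l14. The most abundant remaining genes of their lists were Bnip2 (37.96 to 40.96 FPKM), Bnip3l (10.1 to 17.1 FPKM), Birc6 (11.5 to 18.8 FPKM), Birc5 (1.26 to 2.38 FPKM) and Usp7 (40.7 to 51.2 FPKM), each within 2-fold.

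Of the 17 other p53 targets past the filter, 3 were higher, 5 lower and 9 within 2-fold in LCC against E-Int29-Hi. These are 17.6% higher and 29.4% lower, beside 21.2% and 14.1% of all genes. Plk2, a polo-like kinase gene, had 246 FPKM in LCC, against 43.1 FPKM in E-Int29-Hi and 128 FPKM in MG. Eda2r, a gene of the TNF receptor superfamily, had 8.71, 0.592 and 3.74 FPKM. LCC was the high library for both, by 2.49 and 2.61 (log2) against E-Int29-Hi. Sfn, the epithelial gene of 14-3-3 sigma, stood at 213 FPKM in LCC, against 1119 FPKM in E-Int29-Hi and 113 FPKM in MG, and Trp63, the basal relative of p53 listed among its regulators, at 6.41, 46.0 and 14.3 FPKM. E-Int29-Hi was the high library for Sfn and Trp63, as it was for Perp, Phlda3 and the basal markers.

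**Figure D5:**
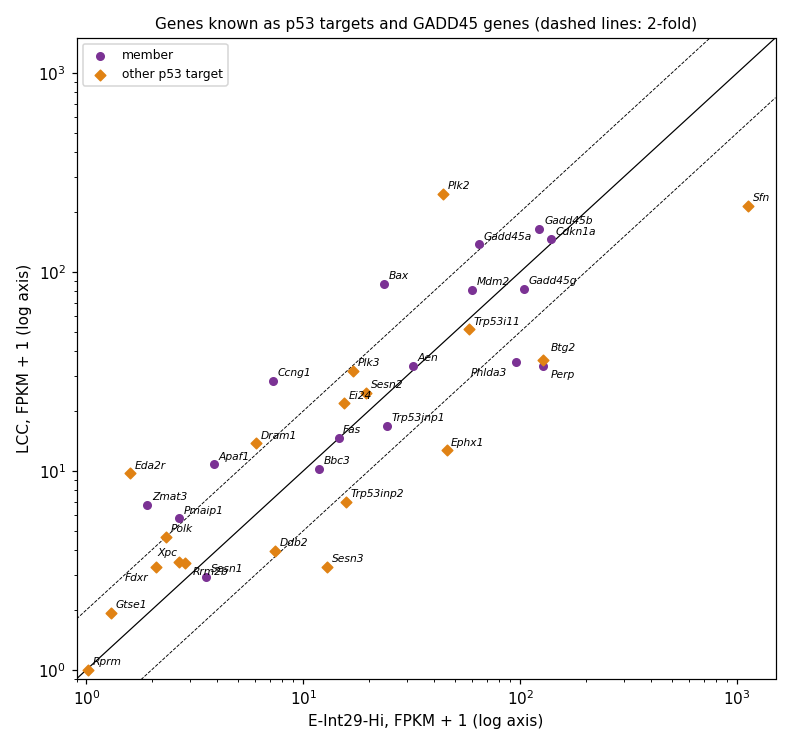
LCC against E-Int29-Hi in FPKM + 1 (log axes) for p53 targets and GADD45 genes, members as circles and other targets as diamonds, with the line of equal values and dashed lines at 2-fold. Among the genes above the upper dashed line are Ccng1, Bax, Zmat3, Plk2, Eda2r, Apaf1, Dram1, Pmaip1 and Gadd45a. Among those below the lower one are Perp, Phlda3, Sfn, Sesn3, Ephx1, Btg2 and Trp53inp2.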

How the data were processed

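Poly(A) RNA was captured with poly-T beads and sequenced from TruSeq libraries, per the labels' protocols. For each library the authors deposited FPKM values, each gene with a status. Per the submitters' processing notes, TopHat 1.4.1, Cufflinks 1.3.0 and the build mm9 were used, in roles that the notes leave unsaid. FPKM values depend on the gene models and on the total of mapped fragments, so a few abundant genes can shift all others. No source used here gives the annotation release.

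Genes were kept where each library had status OK, and of several models of a name the one with the highest summed FPKM, which left 22077 names of 22378 identifiers. Differences used a pseudocount of 1 FPKM and a filter at 1 FPKM in at least 1 of the 2 libraries, and calls a 2-fold threshold. No test was run, as each group has 1 library. The alternatives were pseudocounts of 0.1 and 5, no filter or one at 5 FPKM, median ratio scaling, TPM, a 4-fold threshold, summed models and genes of every status. The steps were tested on simulated data. The members and all lists were chosen with earlier results of these data known. Each member was named. Of other pathway genes, those at least 4-fold apart in any comparison and the 2 of highest mean FPKM per sublist were named, except 1 that is not reported here. Python 3.11.15, numpy 2.4.6, pandas 2.3.3 and matplotlib 3.10.9 were used.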

Additional observations from a re-analysis of the deposited data

How the results depend on the processing

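The counts of members at least 2-fold apart depended on the settings. With a pseudocount of 5 FPKM, 5 members were higher in LCC than in E-Int29-Hi and 0 higher in LCC than in MG, and E-Int29-Hi against MG had 2 higher and 3 lower. With a pseudocount of 0.1 FPKM, 5 were lower in LCC than in MG. Median ratio scaling left 7 higher in LCC than in E-Int29-Hi and 4 lower for E-Int29-Hi against MG, and it turned the median member of E-Int29-Hi against MG to 0.02. With TPM, 2 were higher and 9 lower in LCC than in MG, 13 were lower for E-Int29-Hi against MG, and the median member of LCC against MG was -0.01, beside a median of -0.41 and 27.1% lower over all genes. At 4-fold, 0 were higher and 0 lower in LCC than in E-Int29-Hi or MG, and for E-Int29-Hi against MG 1 was higher and 1 lower. A larger pseudocount shrinks the difference of low genes by construction. Summing models, keeping every status or dropping the filter changed no count of members, and a filter at 5 FPKM moved each by less than 1.5 times. Under none of these settings did a called member change sign. No paired analysis was possible because each group has 1 library, and for the same reason no library could be left out. Depth is unknown, so it is not known how far counting error alone moves the members near 1 FPKM.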

Other observations

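Several further genes of these pathways, chosen after their values were seen, were at least 2-fold apart. Tradd, an adaptor of TNF receptor 1, was at 5.99 FPKM in LCC, against 1.07 FPKM in E-Int29-Hi and 4.15 FPKM in MG, so E-Int29-Hi was low for the adaptor while it was high for the receptor gene Tnfrsf1a. Tnfsf10, the death ligand TRAIL, had 2.5 FPKM in LCC, against 4.84 FPKM in E-Int29-Hi and 6.7 FPKM in MG, whereas its receptor gene Tnfrsf10b lay between 12.7 and 14.4 FPKM. Among p53 targets, the growth arrest gene Btg2 stood at 35.1 FPKM in LCC, against 126 FPKM in E-Int29-Hi and 44.6 FPKM in MG, the sestrin gene Sesn3 at 2.28, 11.9 and 6.61 FPKM, and the epoxide hydrolase gene Ephx1 at 11.7, 44.7 and 25.9 FPKM. Dram1, an autophagy gene, was at 12.7 FPKM in LCC, against 5.07 FPKM in E-Int29-Hi and 4.47 FPKM in MG.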
